A study of Mus musculus and Homo sapiens with 18 samples.

Results

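Epithelial-mesenchymal transition genes were followed as a set of 10 (10 of 46882 genes in the lens table, 10 of 54838 in the NLPC table and 10 of 60880 in the HLE-B3 table), chosen by name as the usual markers and switches of the epithelial-mesenchymal transition. They are the mesenchymal markers Vim, Fn1, Cdh2 and Tgfbi, the epithelial marker Cdh1, and the transcription factors Snai1, Snai2, Zeb1, Zeb2 and Twist1. RNA was sequenced from 18 samples of 3 systems, each with 3 control and 3 deleted libraries. The question was how the loss of Qki, an RNA-binding protein, changed these genes in lens cells.

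The lens samples were whole lenses of Qk-iCKO mice (Nestin-CreERT2; QkL/L) and of control mice (Nestin-CreERT2; QkL/+), taken between P17 and P19. Mice of both groups carried the tamoxifen-inducible Cre driven by Nestin and received tamoxifen at P7 and P8, and the controls carried 1 conditional and 1 wild-type Qk allele. Lens progenitor-like cells (NLPCs) were derived in culture from neural stem cells of newborn Nestin-CreERT2; QkL/L brains, exposed to 4-hydroxytamoxifen for the deletion or left WT, and differentiated with Noggin (100 ng/ml) followed by bFGF (100 ng/ml), BMP4 (20 ng/ml) and BMP7 (20 ng/ml) on fibronectin-coated dishes. HLE-B3 is an immortalized human lens epithelial cell line grown in 20% serum, and its QKI KO cells came from lentiviral CRISPR-Cas9 and puromycin selection. The study describes its animal and cell line work as independent biological replicates, without naming the cultures behind single libraries. Whether the QKI KO cells were 1 clone is not given in the sources used here.

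In the epithelial-mesenchymal transition, cells give up E-cadherin junctions, switch to N-cadherin, and lay down a matrix rich in fibronectin. Snail, Slug, Zeb1, Zeb2 and Twist1 are DNA-binding factors that repress epithelial genes. All of them read E-box motifs, such as CAGGTG for the first 4. TGF-beta is the best known inducer, and in the lens it is linked to the fibrosis of epithelial cells in anterior subcapsular and posterior capsular cataract. Normal lens cells are unusual in carrying vimentin and N-cadherin throughout their life.

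Upstream sequence is shown for a Snail gene, whose product reads the E-box, and for Tgfbi, which rose in every Qk-iCKO lens. The 250 bases before the annotated start of mouse Snai1 (RefSeq, GRCm38.p6, chr2:167537945-167538194, plus strand) held 1 copy of CAGGTG, read on both strands as CAGGTG or CACCTG, at positions -126 to -121, where -1 is the base before the start. Tgfbi is shown up to its first annotated exon (RefSeq, GRCm38.p6, chr13:56609336-56609522, plus strand). It held no E-box of this kind and 1 GC box, GGGCGG. Capitals mark the E-box in the first sequence and the GC box in the second.
Snai1: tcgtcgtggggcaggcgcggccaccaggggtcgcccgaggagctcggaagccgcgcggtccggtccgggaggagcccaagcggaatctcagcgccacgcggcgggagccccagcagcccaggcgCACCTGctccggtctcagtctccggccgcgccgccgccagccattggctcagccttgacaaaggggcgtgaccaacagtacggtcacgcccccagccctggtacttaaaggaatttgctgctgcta
Tgfbi: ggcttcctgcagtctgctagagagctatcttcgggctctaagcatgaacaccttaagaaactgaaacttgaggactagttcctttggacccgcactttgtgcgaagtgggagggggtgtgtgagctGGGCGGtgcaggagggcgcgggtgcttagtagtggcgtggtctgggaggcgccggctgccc

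CAGGTG occurred in the same 250 bases of 17.2% of 32851 mouse RefSeq windows, and of the 5 members with a window (Vim, Snai1, Zeb2, Twist1 and Tgfbi) Snai1 held it. GGGCGG or CCGCCC was found in 32.7% of these windows, and Zeb2 and Twist1 held it as well as Tgfbi. Such a match describes the letters of the window and not a bound site.

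Libraries held 10319320 to 16425331 counts in lens, 28154202 to 68243360 in NLPCs and 69190864 to 81384471 in HLE-B3 cells. Qk did not pass the test in lens (log2 fold change -0.31 ± 0.15 (SE), edgeR adjusted p = 0.229, n = 3 against 3). It was higher, not lower, in the libraries labelled Qk-/- (0.41 ± 0.10, adjusted p = 0.0323), and the reads of exon 2, which Cre removes, cannot be separated in gene counts. QKI fell in HLE-B3 QKI KO cells from 261 ± 3.42 to 103 ± 2.54 CPM (counts scaled to a common library total, SD, n = 3). The first Qk-iCKO lens (scaling factor 1.48) and the second NLPC library labelled Qk-/- (mean correlation 0.892 with the other libraries) stood apart from the rest, and calls that changed without them are given below. Crystallin genes took 56.3 to 66.9% of lens counts. Fibre markers were nearly absent from NLPCs (0.810 to 4.75 CPM summed over 9 genes), while their 8 neural markers summed to 4213 to 4769 CPM. The 7 markers of lens epithelium and lens determination summed to 152 to 171 CPM in WT and 190 to 266 CPM in Qk-/- libraries. Among them Foxe3 and Pitx3 had 0 to 6 counts. CRYAA was at 0 counts in all HLE-B3 libraries, where a count of 0 allows up to 0.0434 CPM (3 counts, counting error only), and PAX6 was present at 147 ± 9.08 CPM.

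Control levels of the members differed widely between the 3 systems. HLE-B3 cells carried FN1 as the highest member per length, at 5370 ± 145 TPM (counts divided by exon length and scaled to a common total, SD, n = 3), then VIM at 2734 ± 63.3 and TGFBI at 2181 ± 63.8 TPM. SNAI2 (586 ± 27.8 TPM), CDH2 (414 ± 10.7) and SNAI1 (205 ± 17.9) followed, and CDH1 came last at 0.121 ± 0.128 TPM. The matrix genes and the Snail factors were thus abundant in the WT cells.

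Lens had little RNA of these matrix genes and Snail factors. Vim led at 378 ± 24.6 TPM and Cdh2 followed at 25.0 ± 0.702, while Cdh1 came next at 7.44 ± 0.563 TPM. Fn1 (0.107 ± 0.0489 TPM) and Tgfbi (0.180 ± 0.0628) were close to the limit of detection, and Snai1, Snai2 and Twist1 had 0 to 2 counts in every control lens. Zeb1 (3.24 ± 0.152 TPM) and Zeb2 (2.92 ± 0.226 TPM) were the expressed transcription factors, and their ranges overlapped.

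NLPCs were led by Vim at 1116 ± 194 TPM and Zeb1 at 130 ± 32.5 TPM, a factor that also marks neural progenitors. Cdh2 (84.9 ± 22.7 TPM), Fn1 (40.5 ± 23.0) and Zeb2 (26.1 ± 4.95) came next. Cdh1 had 3 or 4 counts per WT library and Twist1 had 0, which allows up to 0.0662 CPM. A single gene, Rn7sk or Gm10800, took 25.5 to 28.1% of all TPM in WT NLPCs, which lowers the TPM of every other gene there.

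Between systems, on the raw CPM scale, control ranges of all 3 systems were apart for 8 of 10 members, and the exceptions were Cdh1 and Twist1. The order HLE-B3, NLPC, lens held for Vim, Fn1, Cdh2, Snai1 and Snai2. Zeb1 and Zeb2 were highest in NLPCs, at 545 ± 47.0 and 213 ± 4.16 CPM, although per length the Zeb2 ranges of NLPCs and HLE-B3 cells overlapped. Cdh1 was highest in lens (25.4 ± 1.62 CPM) and did not differ beyond its spread between HLE-B3 cells and NLPCs. When counts of crystallin genes were left out of the lens totals, Vim became highest in lens at 3824 ± 250 CPM, Cdh2 in lens (430 ± 9.92 CPM) moved above NLPCs (278 ± 29.6 CPM), and Zeb1 in lens moved above HLE-B3 cells. These levels come from 2 species, separate tables and different annotations, and were not tested.

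**Figure D1:**
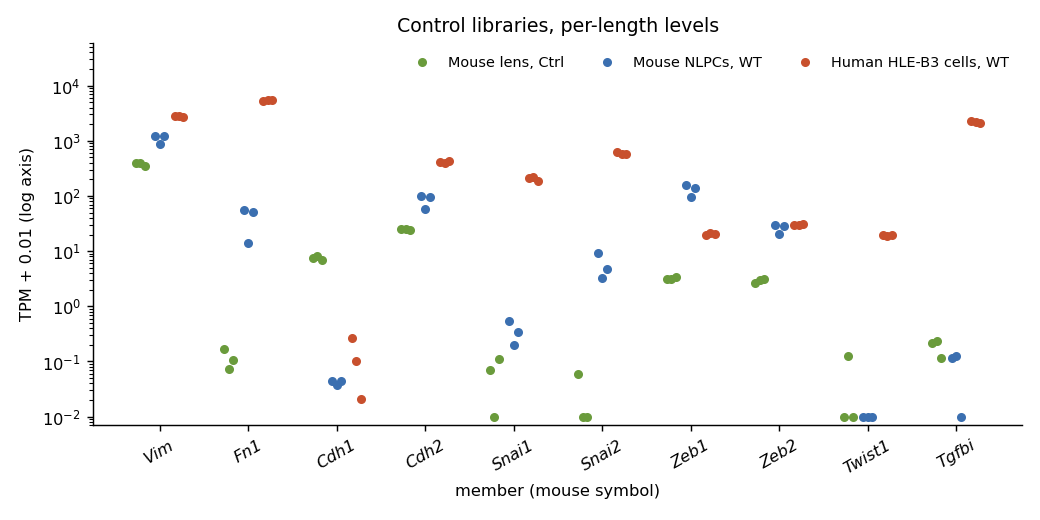
Per-length level (TPM plus 0.01, log axis) of each member in the 3 control libraries of mouse lens, mouse NLPCs and human HLE-B3 cells, 1 point per library. FN1, TGFBI, SNAI1 and SNAI2 stand far higher in HLE-B3 cells than in lens, and Cdh1 stands higher in lens than in either culture.

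In Qk-iCKO lenses, 2 of the 7 members that passed the filter on low counts rose, Fn1 and Tgfbi, and none fell (1, Zeb2, was lower at an unadjusted p under 0.05). Both encode secreted matrix proteins, and both passed the filter only through their counts in Qk-iCKO lenses. The count of 2 of 7 is thus not independent of their rise. Among all 12201 genes tested, 8.46% were called higher and 3.92% lower (edgeR, adjusted p under 0.05), and 18.2% and 17.1% had groups that did not overlap, higher and lower. The median log2 fold change of the 7 members was 0.05, beside 0.01 over all genes tested.

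Fn1 (chromosome 1, 71585520 to 71653200, minus strand, GRCm38), the gene of fibronectin, had 1.57, 0.570 and 0.961 CPM in the control lenses and 68.4, 40.5 and 104 CPM in the Qk-iCKO lenses. Every Qk-iCKO lens was far above every control. The increase was 69.0-fold (log2 fold change 6.11 ± 0.49 (SE), edgeR adjusted p = 0.000562), and it was seen with each library left out in turn (5.73 to 6.50). Fn1 shares exon bases with Apol7d on the other strand.

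Tgfbi (chromosome 13, 56609523 to 56639562, plus strand, GRCm38), a matrix protein named for its induction by TGF-beta, had 0.663, 0.642 and 0.343 CPM in controls against 33.3, 27.2 and 28.5 CPM. The Qk-iCKO values lay close together, and the groups did not overlap. The increase was 53.7-fold (5.75 ± 0.24, adjusted p = 4.9e-05), with 5.48 to 5.88 when single libraries were left out. Both genes had 5 to 19 counts per control lens and fall out of the test if at least 10 counts are required in every library.

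Vim, the intermediate filament of lens cells, had 1568, 1415 and 1400 CPM in controls and 1932, 1385 and 1649 CPM in Qk-iCKO lenses. These groups overlapped (0.18 ± 0.22, adjusted p = 0.636). Cdh1, which encodes E-cadherin, had 28.7, 27.9 and 26.6 CPM in controls and 35.9, 20.4 and 29.8 CPM in Qk-iCKO lenses, also overlapping (0.05 ± 0.21, adjusted p = 0.895).

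Cdh2, which encodes N-cadherin, had 170, 158 and 165 CPM in controls and 129, 134 and 132 CPM in Qk-iCKO lenses. All 3 Qk-iCKO values were below all controls, but the difference did not pass the test over all genes (-0.32 ± 0.15, adjusted p = 0.198). The same held for Zeb2, with 45.0, 45.1 and 52.8 CPM against 37.9, 31.9 and 41.1 CPM (-0.37 ± 0.15, adjusted p = 0.162). Zeb1 had 26.9, 25.0 and 29.6 CPM against 16.1, 24.6 and 24.9 CPM (-0.32 ± 0.19, adjusted p = 0.326), so its groups nearly touched. These decreases depended on the scaling. With total counts, which moved the median of all lens genes to 0.29, Cdh2, Zeb1 and Zeb2 were at -0.03, -0.08 and -0.07. The remaining transcription factors were too low for the test. Snai1 had 1, 0 and 2 counts in controls and 13, 2 and 0 in Qk-iCKO lenses, Snai2 had 1, 0 and 0 against 3, 0 and 2, and Twist1 had 0, 2 and 0 against 5, 2 and 1. A change in these 3 was not detectable at this depth, where 3 counts correspond to 0.183 to 0.291 CPM.

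**Figure D2:**
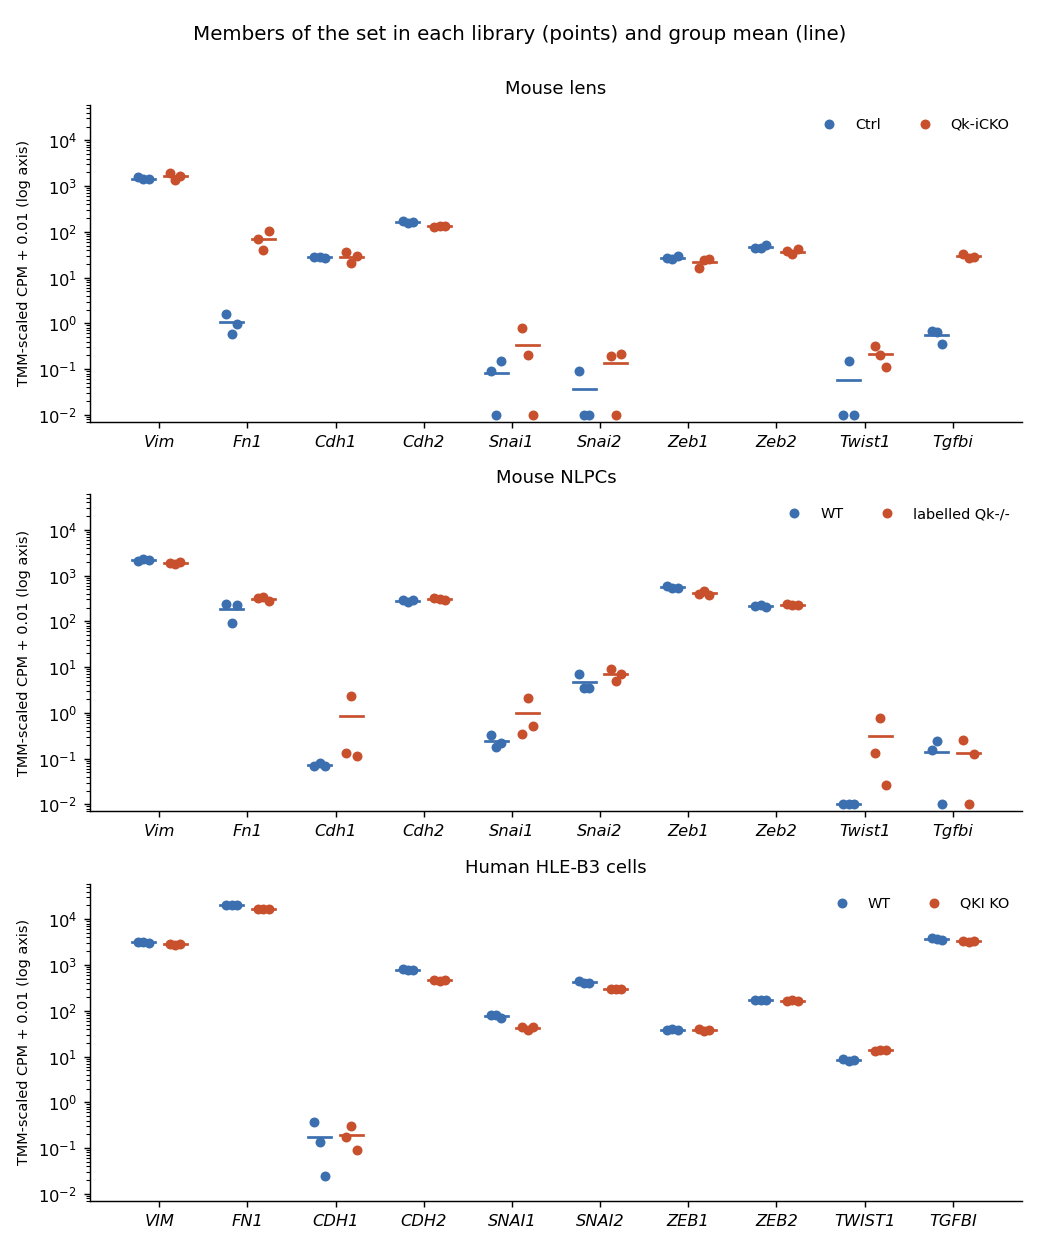
TMM-scaled CPM plus 0.01 (log axis) of the 10 members in each library of the 3 systems, with control libraries in blue, deleted libraries in red and a line at each group mean. In lens the red points of Fn1 and Tgfbi stand far above the blue ones, in NLPCs the groups lie close together except for low counts, and in HLE-B3 cells CDH2, SNAI1 and SNAI2 lie lower and TWIST1 higher.

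Markers of macrophages and leukocytes were higher in Qk-iCKO lenses, as were Fn1 and Tgfbi. In Qk-iCKO 1, 2 and 3 the marker sum was 113, 136 and 153 CPM. Fn1 (68.4, 40.5 and 104 CPM) and Tgfbi (33.3, 27.2 and 28.5 CPM) were ordered otherwise among these lenses. The 9 markers summed to 2.24 to 4.80 CPM in controls and 113 to 153 CPM in Qk-iCKO lenses, and 8 of 8 tested rose, such as C1qa, a complement gene (0.331, 0.570 and 0.618 CPM in controls, 23.4, 41.3 and 43.5 CPM in Qk-iCKO, log2 fold change 6.10), and Tyrobp, a myeloid adaptor (6.24). The ninth, Aif1, had 0 counts in controls and 2, 8 and 3 in Qk-iCKO lenses. Markers as low in controls as C1qa passed the filter only through their counts in Qk-iCKO lenses. The count of 8 of 8 is therefore partly set by the filter. Endothelial markers were also higher (4.31 to 9.20 CPM summed in controls, 14.7 to 24.8 in Qk-iCKO), with 2 of 5 tested called, Pecam1 (2.21) and Tek (1.74). The 8 fibroblast and periocular markers summed to 77.4 to 105 CPM and 110 to 180 CPM, 1 of 5 tested rose, Col3a1 (1.14), a call that was lost without Qk-iCKO 1 (adjusted p = 0.0839), and the fibroblast markers Dcn and Lum had 0 to 23 counts in every lens. Col1a2 carried much of this sum, with 14.8, 9.84 and 5.01 CPM in controls and 102, 73.3 and 5.76 CPM in Qk-iCKO lenses, while the pericyte marker Pdgfrb was lower in every Qk-iCKO lens (25.5, 13.7 and 12.8 CPM against 6.38, 10.1 and 6.66 CPM, -1.17, adjusted p = 0.0502). Fewer or more cells of a type and less or more RNA per cell cannot be told apart in whole lenses, and the part of these cells in the Fn1 and Tgfbi result was not tested. The 7 lens epithelial markers summed to 918 to 1169 CPM in controls and 893 to 1272 CPM in Qk-iCKO lenses. Lens fibre markers moved the other way from Fn1 and Tgfbi. The 9 fibre genes summed to 268961 to 288483 CPM in controls and 143003 to 246676 CPM in Qk-iCKO lenses, and 1 of 8 tested was called lower, Mip, the lens water channel (-1.69, adjusted p = 0.0233), with the other 7 below 0.

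**Figure D3:**
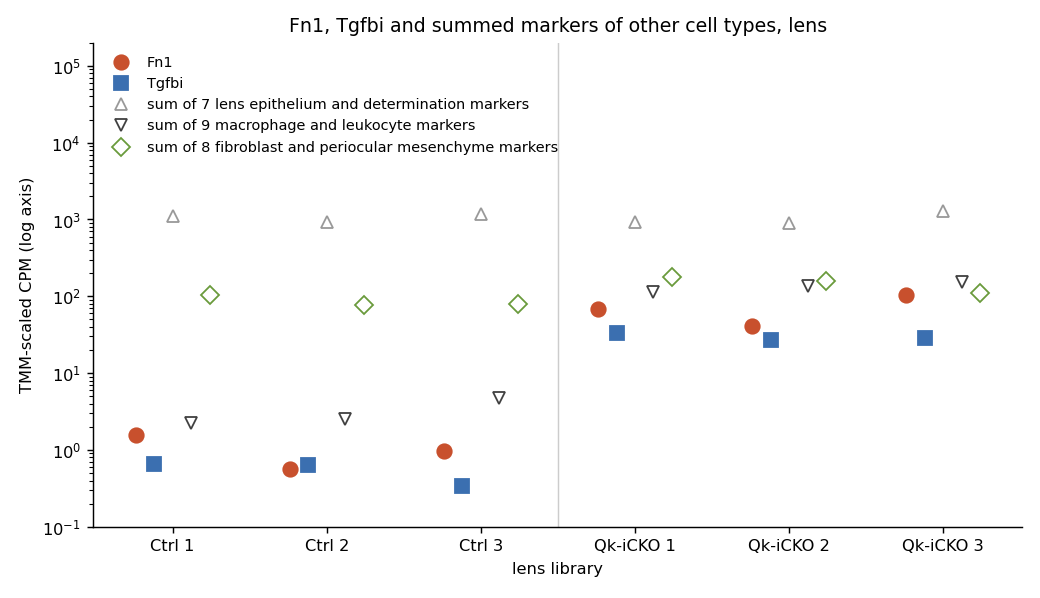
TMM-scaled CPM (log axis) in the 6 lens libraries for Fn1, Tgfbi and the summed markers of lens epithelium (7 genes), macrophages and leukocytes (9 genes), and fibroblasts and periocular mesenchyme (8 genes). Fn1, Tgfbi and the macrophage sum are low in all 3 controls and high in all 3 Qk-iCKO lenses, while the lens epithelial sum stays between 893 and 1272 CPM.

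Other genes of the pathway in lens were read from lists. Of 10 TGF-beta ligands, receptors and latency proteins tested, 3 rose and none fell (median 1.25), among them the receptor Tgfbr2 (0.291 ± 0.106 to 3.19 ± 0.269 CPM, 3.40 ± 0.36, adjusted p = 0.0013) and the co-receptor Tgfbr3 (2.67 ± 0.62, adjusted p = 0.0359). Without Qk-iCKO 1, which had the highest Tgfbr3 (25.7, 13.4 and 5.05 CPM in Qk-iCKO lenses), 2 rose, the Tgfbr3 call was lost (adjusted p = 0.0749) and the median was 0.75. Of 10 TGF-beta response genes tested, 1 rose, Postn, a matrix protein related to Tgfbi (0.723 ± 0.173 to 45.6 ± 3.59 CPM, 5.97 ± 0.21, adjusted p = 1.3e-05). Of 9 signal transducers and brakes, 1 rose, the ubiquitin ligase Smurf1 (1.17). Of 9 other transcription factors of the transition tested, 1 rose, Klf4 (5.01), which is better known for keeping the epithelial state. Of 9 mesenchymal surface and filament genes tested, 3 rose, including the matrix protease Mmp2 (3.20) and the filament gene Nes (2.19), whose promoter drives the Cre in these mice, and the calls of Mmp2 (adjusted p = 0.0649) and the integrin gene Itga5 (0.0603) were lost without Qk-iCKO 1. Of 22 epithelial genes 6 were tested and 2 rose, the desmosome gene Dsp (5.91) and the keratin Krt19 (1.78), with or without Qk-iCKO 1. Dsp had 2, 3 and 2 counts in controls and entered the test through its counts in Qk-iCKO lenses, as did Tgfbr2 and Postn. Tjp1, a tight junction gene, was lower in every Qk-iCKO lens (207, 177 and 225 CPM in controls, 104, 157 and 164 CPM in Qk-iCKO) and did not pass the test (-0.52, adjusted p = 0.168). None of the 7 catenins and other cadherins tested was called, and 3 were higher at an unadjusted p under 0.05.

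In NLPCs, 1 of the 7 members tested fell, Zeb1, and none rose (at an unadjusted p under 0.05 Fn1 and Snai1 were higher and Vim lower, and DESeq2 called Fn1 and Vim). Among all 20371 genes tested, 4.73% were called higher and 5.93% lower, and 15.9% and 19.3% had groups that did not overlap, higher and lower. Zeb1 (chromosome 18, 5591860 to 5775467, plus strand, GRCm38), a repressor of epithelial genes, had 588, 531 and 543 CPM in WT libraries and 404, 451 and 371 CPM in libraries labelled Qk-/-. The groups did not overlap (-0.44 ± 0.10, adjusted p = 0.0266, 1.36-fold lower). The call was lost when WT 1 (adjusted p = 0.108), WT 2 (0.0555), WT 3 (0.111), Qk-/- 1 (0.102) or Qk-/- 3 (0.0646) was left out and kept without Qk-/- 2 (0.00082), and it was lost with scaling by total counts (0.0768). Its exons overlap Gm10125 on the other strand.

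Vim, Fn1 and Snai1 had groups that did not overlap in NLPCs and did not pass the test. Vim had 2123, 2329 and 2199 CPM in WT and 1918, 1808 and 1962 CPM in Qk-/- libraries (-0.23 ± 0.09, adjusted p = 0.14). Fn1 had 237, 90.0 and 229 CPM against 317, 336 and 278 CPM (0.74 ± 0.32, adjusted p = 0.181). WT 2 was low for Fn1, and without it the log2 fold change was 0.40. Snai1 had 22, 7 and 14 counts in WT and 19, 60 and 30 in Qk-/- libraries (2.04 ± 0.88, adjusted p = 0.186). Most of that difference lay in Qk-/- 2, without which it was 0.87.

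Snai2, which encodes Slug, overlapped between groups with 6.95, 3.54 and 3.54 CPM in WT and 9.04, 5.06 and 7.02 CPM in Qk-/- libraries (0.59 ± 0.33, adjusted p = 0.294). Cdh2 (0.12 ± 0.08, adjusted p = 0.408) and Zeb2 (0.09 ± 0.08, adjusted p = 0.507) also overlapped. The other 3 members were too low for the test. Cdh1 had 4, 3 and 4 counts in WT and 7, 69 and 6 in Qk-/- libraries, and Twist1 had 0, 0 and 0 against 7, 22 and 1. The high value of each was in Qk-/- 2, the library that stood apart. Tgfbi had 10, 10 and 0 counts against 14, 0 and 7, so its RNA was hardly detected in these cultures.

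Receptors of TGF-beta and several surface genes changed in NLPCs. Of 10 ligands, receptors and latency proteins tested, 3 rose and 1 fell (median 0.44, beside 0.04 over all genes). Tgfbr2 rose from 29.8 ± 2.77 to 88.4 ± 12.4 CPM (1.57 ± 0.13, adjusted p = 0.00053) and Tgfbr3 rose by 1.52 (log2), while Tgfbr1 was lower (-0.50). None of 10 response genes tested rose and 3 fell, among them Pmepa1, a feedback brake (-1.43), and the matrix gene Sparc (-0.94), and of 9 transducers and brakes 1 fell, the Smad partner Skil (-1.01). Of 11 mesenchymal surface genes tested, 3 fell, including Cd44, a hyaluronan receptor (44.9 ± 1.04 to 11.2 ± 1.41 CPM, 4.00-fold lower), and Pdgfra (-1.26). Of 7 catenins and other cadherins, 3 fell and 1 rose, with Cdh11 at -2.40 and Cdh4 at 1.12. Of 13 other transcription factors, Foxc1 rose (0.88) and Sox4 fell (-0.73). None of the 8 epithelial genes tested was called, and 1 was higher at an unadjusted p under 0.05. Every gene of these lists that was called stayed so without Qk-/- 2, and more were then called, such as 4 ligands and receptors higher, 4 response genes lower, and 2 mesenchymal surface genes higher with 4 lower. The fibroblast and periocular marker sum, which holds Pdgfra, was 69.4 to 80.9 CPM in WT and 33.5 to 35.8 CPM in Qk-/- libraries. The lower sum does not describe the list. Of 6 markers tested, 1 was called lower, 0 were called higher, and 4 lay above 0 (median 1.39, and 0.37 without Qk-/- 2).

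The effects in the 2 mouse systems were then compared in 1 fit. Fn1 and Tgfbi differed between them, with an effect in NLPCs less that in lens of -5.27 ± 0.65 (log2, adjusted p = 0.000615) and -5.39 ± 1.10 (adjusted p = 0.0106). Among 16675 genes in this fit, 3.21% had a higher and 5.33% a lower effect in NLPCs. The Tgfbi difference rests on few counts in NLPCs and was not called when NLPC WT 1 (adjusted p = 0.0627) or NLPC WT 2 (0.058) was left out. Tgfbi entered this fit only through its counts in Qk-iCKO lenses, so its difference is not independent of its rise there. Cdh1 differed by 3.50 ± 1.47 (adjusted p = 0.18), a value that follows the 69 counts of Qk-/- 2 and was 0.86 without that library. It passed the threshold when the replicate number was kept as a block (3.13 ± 0.73, adjusted p = 0.0272). Cdh2 differed by 0.53 ± 0.16 (adjusted p = 0.0568, and 0.0393 without Qk-iCKO 1), and for Zeb2 (0.55 ± 0.18), Vim, Snai1, Snai2 and Zeb1 the difference did not pass.

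In HLE-B3 cells, 5 of 10 members fell in QKI KO cells and 1 rose, against 16.5% of 19049 genes called lower and 17.2% called higher, and 22.6% and 22% with groups that did not overlap, lower and higher. The median of the members was -0.14 (all genes, -0.02). The members that fell were FN1, CDH2, SNAI1, SNAI2 and TGFBI, and TWIST1 rose.

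SNAI1 (chromosome 20, 48599517 to 48605423, plus strand, GRCh37), the gene of Snail, had 79.3, 82.8 and 68.0 CPM in WT and 44.3, 37.7 and 43.3 CPM in QKI KO cells. It had the largest decrease among the members, 1.84-fold (-0.88 ± 0.08, adjusted p = 4.7e-08). CDH2 (chromosome 18, 25512843 to 25757910, minus strand) had 799, 760 and 782 CPM against 467, 456 and 465 CPM, a 1.69-fold decrease (-0.75 ± 0.05, adjusted p = 2.7e-10). SNAI2 had 454, 409 and 404 CPM against 303, 293 and 303 CPM (-0.49 ± 0.06, adjusted p = 5.7e-07). In each of these genes the QKI KO values were below all WT values and varied little among themselves.

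FN1 (chromosome 2, 216225163 to 216300796, minus strand) had 20096, 20419 and 20334 CPM in WT and 16925, 16989 and 16822 CPM in QKI KO cells. This was a small decrease in a very abundant RNA, 1.20-fold (-0.26 ± 0.05, adjusted p = 0.000109). TGFBI had 3889, 3672 and 3523 CPM against 3383, 3165 and 3413 CPM (-0.15 ± 0.05, adjusted p = 0.0256). The TGFBI call was lost without WT 1 (-0.10, adjusted p = 0.175), WT 2 (0.0829), QKI KO 1 (0.0804), QKI KO 2 (0.104) or QKI KO 3 (0.0936). TWIST1 had 8.66, 8.16 and 8.25 CPM in WT and 13.4, 13.9 and 13.9 CPM in QKI KO cells, a 1.64-fold increase (0.72 ± 0.11, adjusted p = 3.2e-05).

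VIM had 3206, 3157 and 2959 CPM in WT and 2881, 2703 and 2919 CPM in QKI KO cells. The groups did not overlap, and the test lay at its threshold (-0.13 ± 0.05, adjusted p = 0.0501, and 0.0435 without WT 3). ZEB1 (38.5 ± 1.29 and 38.6 ± 1.49 CPM) overlapped between the groups (0.00 ± 0.07), and ZEB2 was at 173 ± 3.16 and 164 ± 4.21 CPM (-0.07 ± 0.05, adjusted p = 0.317). CDH1 had 29, 9 and 1 counts in WT and 12, 20 and 6 in QKI KO cells (0.10 ± 0.97), so it stayed near the limit of detection in all 6 libraries and a change was not detectable. VIM, CDH1, CDH2, SNAI2, ZEB1, ZEB2 and TWIST1 share exon bases with genes on the other strand.

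**Figure D4:**
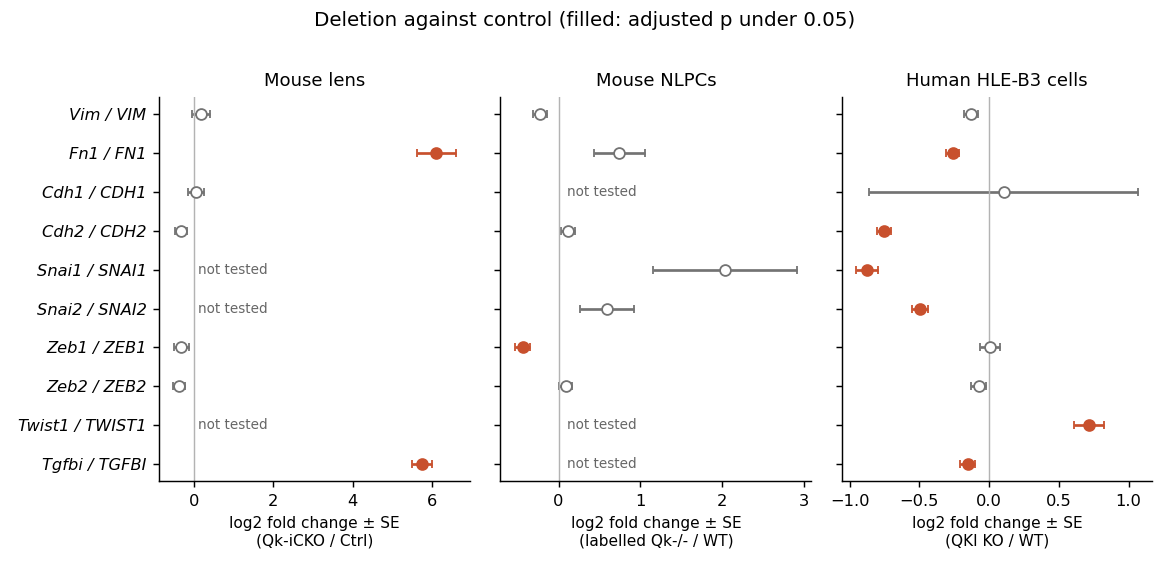
Log2 fold change ± SE of each member, deleted against control libraries, in the 3 systems, with filled red points for an adjusted p under 0.05 and a separate horizontal scale for each system. Fn1 and Tgfbi near 6 in lens stand apart from all other values, and in HLE-B3 cells 5 red points lie below 0 and TWIST1 above it.

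Some HLE-B3 decreases moved together with the chromosomal neighbourhood. The median log2 fold change of the 50 nearest tested genes was -0.60 around CDH2, and CDH2 less that median was -0.16. SNAI2 had neighbours at -0.24 and was -0.25 less them, and TGFBI had neighbours at -0.16 and was 0.00 less them. The other called members were as large or nearly as large after this step, with SNAI1 at -1.03 (neighbours 0.15), FN1 at -0.33 (0.07) and TWIST1 at 0.66 (0.06). Whether copy number differed between the WT and QKI KO cells was not tested.

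**Figure D5:**
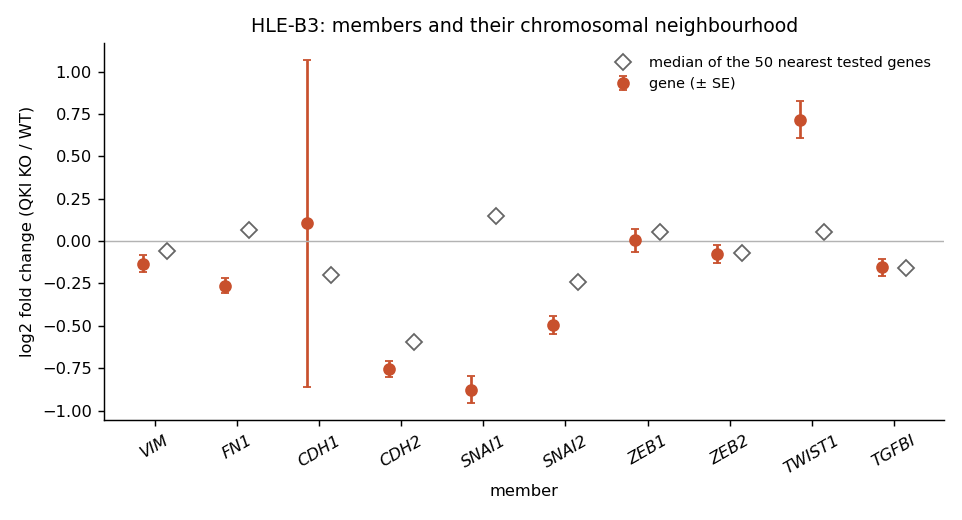
Log2 fold change (QKI KO against WT) of each member in HLE-B3 cells with its SE (red) and the median of the 50 tested genes nearest to it on its chromosome (open diamonds). The diamond of CDH2 lies at -0.60 near the gene itself, and those of SNAI1, FN1 and TWIST1 lie near or above 0, away from the genes.

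Genes around the members in HLE-B3 cells changed in both directions. Of 11 mesenchymal surface and filament genes tested, 6 fell and none rose, led by MMP2 (58.5 ± 4.67 to 7.72 ± 0.742 CPM, -2.92 ± 0.09, adjusted p = 6.2e-15) and NES (-1.25). Of 16 epithelial genes tested, 3 rose and 2 fell. ESRP1, an epithelial splicing factor, rose from 0.164 ± 0.0917 to 2.01 ± 0.146 CPM (3.59 ± 0.42, adjusted p = 1.1e-06) and the keratin KRT8 rose by 1.26 (log2), while CLDN4 (-1.08) and TJP1 (-0.29) of tight junctions were lower. Of 8 catenins and other cadherins, 4 fell and 1 rose, with CDH11 at -0.87, the p120 catenin gene CTNND1 at -0.47 and CDH4 at 2.44. Of 11 other transcription factors tested, 6 fell and 2 rose, among them PRRX1 (-2.02), TCF4 (-0.87), FOXF2 (0.91) and FOXC1 (0.70).

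TGF-beta genes moved in both directions in QKI KO cells. The type I receptor TGFBR1 rose from 141 ± 5.89 to 307 ± 19.3 CPM (1.13 ± 0.06, adjusted p = 7.8e-12) and TGFBR2 by 0.31 (log2), and the latency proteins LTBP1 (-1.48) and LTBP3 (-0.34) fell, in all 3 higher and 2 lower of 10 tested. Among 9 transducers and brakes, 2 rose (SMURF2, 0.65, and SMAD6, 0.58) and 3 fell, including SMAD4 (-0.57) and SMAD2 (-0.54). Of 13 response genes, 7 rose and 4 fell (median 0.45), with the matricellular gene CTGF at 0.92 and the actin-binding TAGLN at 0.79, and CNN1 at -2.04 and POSTN at -0.94. Fibroblast and periocular markers summed to 4016 to 4086 CPM in WT and 2099 to 2397 CPM in QKI KO cells, a sum led by COL1A1 (-0.94). Of 7 such markers tested, 2 were called higher and 3 lower. The 9 macrophage markers summed to 1.78 to 3.65 CPM in all libraries. In these cells FN1 and POSTN were lower after deletion, and TGFBI was slightly lower (-0.15), a call lost when most single libraries were left out. In Qk-iCKO lenses Fn1, Tgfbi and Postn were higher. This contrast across species was not tested.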

How the data were processed

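Gene counts of 18 RNA-seq libraries (Illumina TruSeq, stranded kit) were used as the authors deposited them, 1 table per system, in the unit raw counts per gene. The study's methods give STAR 2.6.1b in 2-pass mode and HTSeq 0.11.0 on mm10 and hg19. The submitters' processing notes also name HISAT2 2.0.4 and featureCounts without a role, and the strand setting of the counting is not given in the sources used here. The members and gene lists were chosen with earlier results of these data known.

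Each table was fitted separately with edgeR 4.0.16 (quasi-likelihood, robust, TMM scaling) in R 4.3.3, after filterByExpr (minimum count 10, total 15), with Benjamini-Hochberg adjustment over all genes tested. Fold changes are log2 with SE, and levels are TMM-scaled CPM, except control levels between systems, which are raw CPM or TPM from merged exon lengths (Gencode vM21 on GRCm38, v44 on GRCh37). An exact permutation test of 3 against 3 libraries cannot go below p = 0.1 and was not used. The scripts were tested on simulated counts. All members are named. From each other list at most 2 genes per direction with the largest change past the threshold were named, with the TGF-beta ligands and receptors. Outside this rule, Itga5 and Tjp1 were also named in lens, and markers of cell types were named freely. Alternatives were RLE scaling, total counts, other filters, DESeq2 1.42.0, a replicate block, single libraries left out and, in HLE-B3, subtraction of the neighbours' median. Libraries with the same number deviated together in lens (r = 0.23, 0.13 and 0.52) and NLPCs (0.12, 0.32 and 0.15), and not in HLE-B3 cells (0.06, 0.06 and -0.05). The labels give a replicate number and no pairing. The main fits therefore took the samples as unpaired, with the replicate block as an alternative. Not every library correlated best with its own number (lens Ctrl 2 with Qk-iCKO 1, 0.28, and NLPC WT 1 with Qk-/- 3, 0.23). After the data were seen, the gene lists were also fitted without Qk-iCKO 1 or Qk-/- 2. Upstream windows came from RefSeq.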

Additional observations from a re-analysis of the deposited data

Results flagged for a closer look

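The effect of deletion differed between NLPCs and lens for Fn1 (-5.27, log2, NLPC less lens) and for Tgfbi (-5.39) by the test of the difference itself. For Tgfbi, hardly detected in NLPCs, that test is not independent of the rise in lens through which the gene passed the filter. In a further 4 cases all deleted libraries of one system lay above their controls and all of the other below, and these differences across species were not tested. They are Fn1 in HLE-B3 cells less lens (-6.37), Tgfbi in HLE-B3 cells less lens (-5.90), Fn1 in HLE-B3 cells less NLPCs (-1.01) and Snai1 in HLE-B3 cells less NLPCs (-2.91). In NLPCs neither Fn1 nor Snai1 passed the test, and Snai1 was 0.87 there without Qk-/- 2. In lens the macrophage markers were higher in the same group as Fn1 and Tgfbi, and their part was not tested. Groups of 3 libraries were not tested for single outlying values.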

How the results depend on the processing

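The 2 lens calls, Fn1 and Tgfbi, held under RLE scaling, total counts, the loose filter, DESeq2, the replicate block and scaling without crystallins, and with each library left out. With at least 10 counts required in every library 0 members were called, since neither gene then enters the test. Total counts as scaling moved the median of all lens genes to 0.29. In NLPCs the count of members called was 0 with total counts, 3 with DESeq2 (Vim and Fn1 with Zeb1) and 0 to 1 with libraries left out, against 1. The difference between the mouse systems was called for 5 members with DESeq2 and for 1 to 3 with libraries left out, against 2. In HLE-B3 cells 6 members were called, 5 to 7 under the alternatives. There libraries with the same number did not deviate together, and under the replicate block TGFBI was not called (adjusted p = 0.0558). The block added Cdh1 to the difference between mouse systems and changed no other member's call. Control ranges of the 3 systems were apart for 8 members, 7 without crystallin genes and 6 per length.

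Sign changes were seen only in values near 0 or with large errors, apart from TGFBI, which was 0.0022 less its neighbours. These were Cdh1 in lens without Qk-iCKO 1 (-0.14, range with single libraries left out -0.14 to 0.24), ZEB1 in HLE-B3 cells with total counts (-0.053), with the strict filter (-0.0045) and without QKI KO 1 (range -0.016 to 0.041), and CDH1 in HLE-B3 cells without WT 2, WT 3 or QKI KO 2 (range -0.42 to 1.37). In the difference between mouse systems, Zeb1 turned with RLE scaling (0.014), DESeq2 (0.017) and with some libraries left out (range -0.20 to 0.077), and Snai1 with DESeq2 (0.018) and with some libraries left out (range -1.04 to 1.74). The cause was not tested. Counts limit Snai1, Snai2 and Twist1 in lens, Cdh1, Twist1 and Tgfbi in NLPCs and CDH1 in HLE-B3 cells.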
